A study of Mus musculus with 16 samples.

Results

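AP-1 and other early response genes were followed in blood neutrophils of mice with and without the lymphotoxin β receptor (LTβR, encoded by Ltbr). The members are 10 genes chosen by symbol: Fos, Fosb, Fosl2, Jun, Junb, Jund, Atf3, Egr1, Ier2 and Ier3. All 10 were among the 23337 gene symbols of the count table, and all 10 passed the filter on low counts that left 9213 genes to test.

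Neutrophils came from the blood of 8-week-old C57/Bl6 mice by negative selection with magnetic beads and were sequenced as 16 libraries. LTβRΔN mice carried floxed Ltbr (Ltbr fl/fl) and Mrp8-Cre, in which the S100A8 promoter drives Cre and EGFP and deletes the receptor gene in neutrophils. Controls were littermates with floxed Ltbr and no Cre, so floxed alleles were common to all groups. The labels gave 3 unstimulated control, 4 stimulated control, 4 unstimulated LTβRΔN and 5 stimulated LTβRΔN libraries. The protocol was a culture of 2 h in GM-CSF and TNF (100 ng/ml each) plus IL-6 (50 ng/ml), to which LIGHT, a ligand of LTβR, was added at 500 ng/ml or not, whereas in the design text of the series the cytokines are themselves the treatment. What a given library received is stated by no label, so groups are named by label, and nothing states that the libraries of a group came from separate mice. P-values therefore measure the spread between these libraries, which may be partly technical.

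Fos and Jun proteins are basic leucine zipper factors that pair with each other to form AP-1, a dimer that binds DNA at AP-1 sites. Fos proteins dimerize with Jun proteins, whereas Jun proteins also pair among themselves, and Atf3 is a relative that often represses its targets. Early response genes need no new protein for their transcription and are switched on within minutes by MAP kinases and other signals, after which many of their short-lived transcripts are lost again. In neutrophils they accompany activation by cytokines.

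Promoter sequences from RefSeq (assembly GRCm38, 250 bases before to 50 after the start of transcription) were matched by symbol for 8 of the 10 genes, all but Egr1 and Ier2. Shown here are promoters of 3 genes that rose with the stimulated label in both genotypes (Ier3, Junb and Fosl2) and of the pair of genes with the lowest fold changes (Fos and Atf3). Capitals mark matches to an NF-kB site or to an EGR site (GCGNGGGCG), searched on both strands, and each sequence runs along the strand of its gene.
Ier3 (chr17:35821463-35821762, plus strand): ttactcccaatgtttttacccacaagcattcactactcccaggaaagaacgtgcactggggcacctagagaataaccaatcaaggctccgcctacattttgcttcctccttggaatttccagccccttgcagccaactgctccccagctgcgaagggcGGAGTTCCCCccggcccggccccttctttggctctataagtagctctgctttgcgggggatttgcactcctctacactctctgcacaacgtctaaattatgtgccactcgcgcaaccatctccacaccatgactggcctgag
Junb (chr8:84978699-84978998, minus strand): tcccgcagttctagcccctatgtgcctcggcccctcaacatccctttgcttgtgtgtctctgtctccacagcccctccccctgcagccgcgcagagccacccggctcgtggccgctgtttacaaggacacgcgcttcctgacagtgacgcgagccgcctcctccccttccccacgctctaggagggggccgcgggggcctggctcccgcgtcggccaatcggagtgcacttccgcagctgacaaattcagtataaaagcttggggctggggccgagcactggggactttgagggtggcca
Fosl2 (chr5:32136222-32136521, plus strand): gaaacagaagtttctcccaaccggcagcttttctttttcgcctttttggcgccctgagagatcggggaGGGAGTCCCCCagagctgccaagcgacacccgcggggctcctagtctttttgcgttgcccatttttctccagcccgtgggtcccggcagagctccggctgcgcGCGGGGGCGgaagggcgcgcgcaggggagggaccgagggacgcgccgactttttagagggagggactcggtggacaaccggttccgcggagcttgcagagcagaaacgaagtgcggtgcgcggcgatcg
Fos (chr12:85473640-85473939, plus strand): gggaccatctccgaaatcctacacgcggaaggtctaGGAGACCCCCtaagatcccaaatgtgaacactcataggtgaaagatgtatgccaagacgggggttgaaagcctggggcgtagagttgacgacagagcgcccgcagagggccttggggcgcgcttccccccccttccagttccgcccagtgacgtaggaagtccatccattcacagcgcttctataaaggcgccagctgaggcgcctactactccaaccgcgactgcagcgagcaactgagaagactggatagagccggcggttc
Atf3 (chr1:191183284-191183583, minus strand): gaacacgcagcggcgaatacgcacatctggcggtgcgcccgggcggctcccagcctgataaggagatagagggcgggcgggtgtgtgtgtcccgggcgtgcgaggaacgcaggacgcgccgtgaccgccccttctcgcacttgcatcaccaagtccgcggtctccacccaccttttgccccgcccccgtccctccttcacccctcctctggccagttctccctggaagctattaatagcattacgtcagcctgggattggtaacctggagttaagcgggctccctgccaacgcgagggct

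An NF-kB site was present in 4 of 8 member promoters (Fos, Fosb, Fosl2 and Ier3), and in 8.46% of the 32851 promoters of the same length. In Ier3 it lay from -92 to -83 and in Fos from -214 to -205, counted from the start of transcription. In Fosl2, matches on opposite strands overlapped from -182 to -172. An EGR site was present in 2 of 8 member promoters (Fosb, from -50 to -42, and Fosl2, from -79 to -71) and in 5.55% of all promoters. The AP-1 site TGACTCA (5.2% of all promoters), the cAMP response element TGACGTCA (1.79%), the STAT site TTCNNNGAA (8.3%) and the CArG box (1.63%) were in 0 of 8 member windows. These matches are of letters only, and the promoters of Junb, Jun, Jund and Atf3 held none of the motifs searched. The windows follow RefSeq starts, which differ from the outermost GENCODE starts for all of these genes but Fos and Jun. The RefSeq starts of Jund and Junb lie before the GENCODE gene, and the starts of Fosl2, Atf3, Ier3 and Fosb lie inside it. The whole Jund window (70697489 to 70697788) lies before its gene record, which begins at 70698949. The Atf3 window (191183284 to 191183583) lies well inside its record, whose outermost start is 191218039.

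In GENCODE annotation on the same assembly, Junb (chromosome 8, 84974484 to 84978718, minus strand), Jun (chromosome 4, 95049034 to 95052222, minus strand), Jund (chromosome 8, 70698949 to 70700616, plus strand) and Ier2 (chromosome 8, 84661331 to 84662852, minus strand) are genes of a single exon. Fos (chromosome 12, 85473890 to 85477273, plus strand), Fosb (chromosome 7, 19302696 to 19310051, minus strand) and Fosl2 (chromosome 5, 32135801 to 32157842, plus strand) have several exons, as have Atf3 (chromosome 1, 191170296 to 191218039, minus strand) and Ier3 (chromosome 17, 35821684 to 35822923, plus strand). The gene record of Junb overlaps that of Prdx2 on the other strand, and Prdx2 is also in the table. The single exon of Junb (1809 bases) is shorter than its gene record, and overlap of exons was not checked. Whether reads were counted by strand is not given in the sources used here, so Junb counts may include reads from Prdx2 if the exons overlap.

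Counts per library ranged from 1094335 to 11932653, with group medians between 2408608 (stimulated LTβRΔN) and 8255787.5 (stimulated control). Ltbr was at 93.6 to 154 CPM (counts relative to the TMM-scaled library total, in units of 1e6) in unstimulated and 84.6 to 148 CPM in stimulated control libraries, and at 3.62 to 10.4 CPM and 0.705 to 18.1 CPM in LTβRΔN libraries. Levels of 8 neutrophil markers summed to between 45900 and 76400 CPM in every library, while those of B cells did not exceed 1.60 CPM, of T cells 16.4 CPM and of erythroid cells 5.95 CPM. Summed platelet markers reached 194 CPM and those of immature neutrophils 759 CPM, each in stimulated control library 82. The medians of its group were 26.9 and 241 CPM, and other groups had at most 23.2 and 232 CPM. Mpo and Elane were at 0 in all groups. The 6 monocyte markers summed to 680 to 995 CPM, nearly all of it from Csf1r, Ly6c2 and Lyz1, with Ccr2, Cx3cr1 and Ms4a4c at no more than 1.39 CPM in any library, and no marker passed the test in any comparison. As these are bulk libraries, fewer cells with a transcript and less transcript per cell cannot be told apart.

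Together the 10 genes took 1.24% to 2.186% of the counts in unstimulated control and 1.19% to 2.537% in unstimulated LTβRΔN libraries. In stimulated libraries they took 2.648% to 3.158% in controls and 2.774% to 3.025% in LTβRΔN neutrophils, above every unstimulated library. Levels of the genes in each library are shown in the panels by gene.

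**Figure D1:**
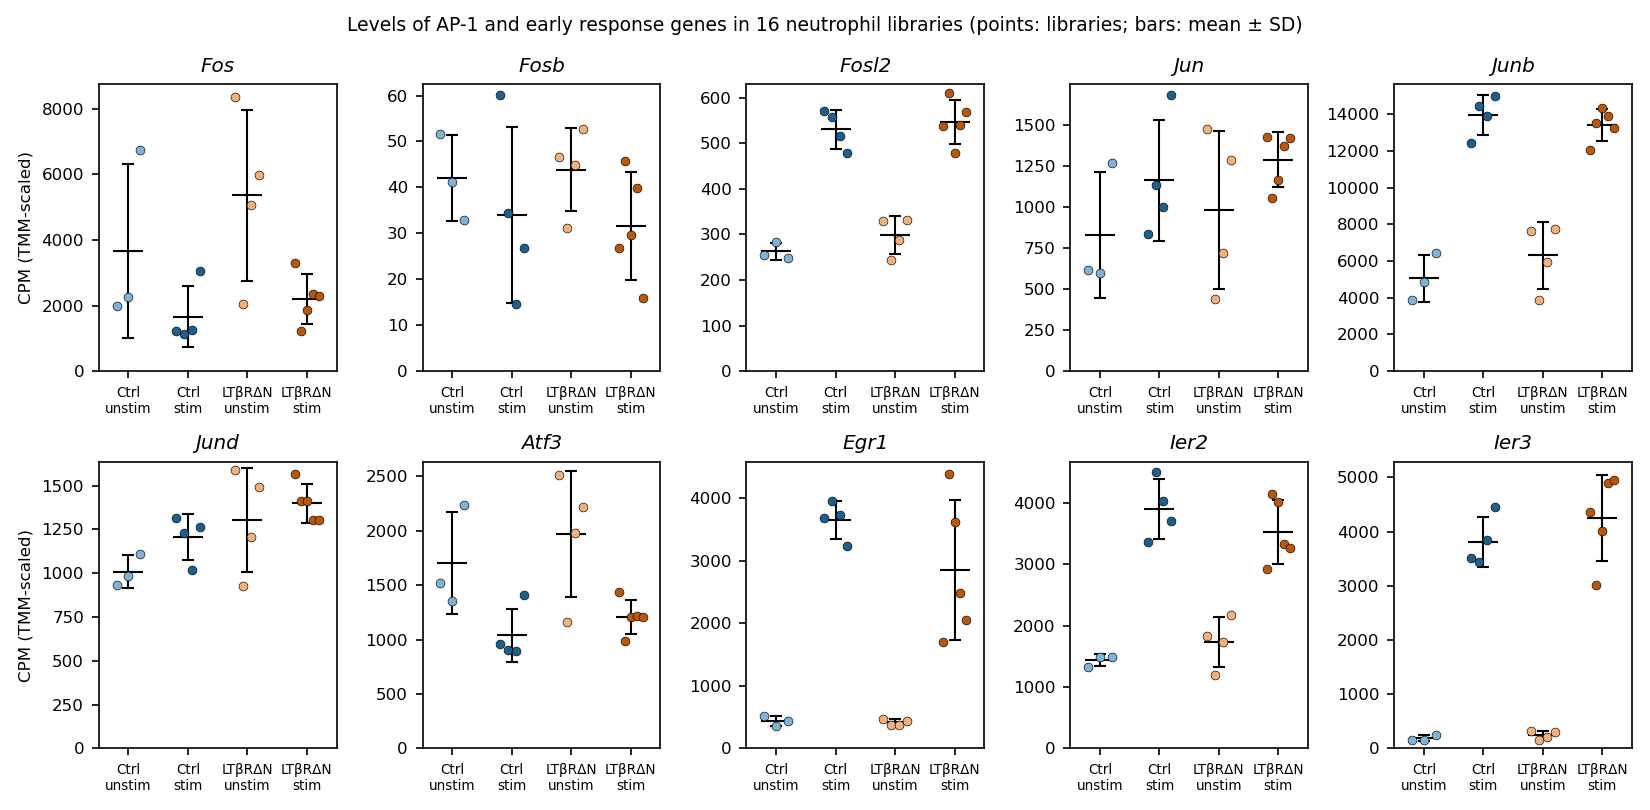
Levels of the 10 genes in CPM (linear axes from 0, one panel per gene) in 16 libraries, grouped by genotype and label; points are libraries, and bars give the mean ± SD. Fosl2, Junb, Egr1, Ier2 and Ier3 had every stimulated library above every unstimulated one, whereas Fos and Atf3 were spread widely among unstimulated libraries.

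The first question was which of these genes differed between stimulated and unstimulated libraries of each genotype. In control neutrophils, 5 of 10 members were higher in stimulated libraries (Fosl2, Junb, Egr1, Ier2 and Ier3) and 0 were lower, by edgeR's quasi-likelihood test at a Benjamini-Hochberg adjusted p under 0.05. Of all 9213 genes tested, 2.82% were higher and 0.662% were lower. In LTβRΔN neutrophils the same 5 members were higher and 1 (Atf3) was lower, where 2.98% of all genes were higher and 0.749% were lower. This balance over all genes turned with the scaling: 260 genes were higher and 61 lower in controls, but 201 higher and 272 lower when counts were scaled by library totals only, and 275 and 69 in LTβRΔN neutrophils became 216 and 293. The ranges of stimulated and unstimulated libraries were apart, with stimulated higher, for the same 5 members in each genotype. Such separation upward was found for 6.58% of all genes in controls and 4.61% in LTβRΔN neutrophils. Downward it was found for 6.09% and 2.67% of all genes and for 0 members. The median log2 fold change of the members was 0.75 in controls (-0.02 over all genes) and 0.63 in LTβRΔN neutrophils (-0.03 over all genes). Both contrasts and their intervals are drawn in the plot of fold changes by label.

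**Figure D2:**
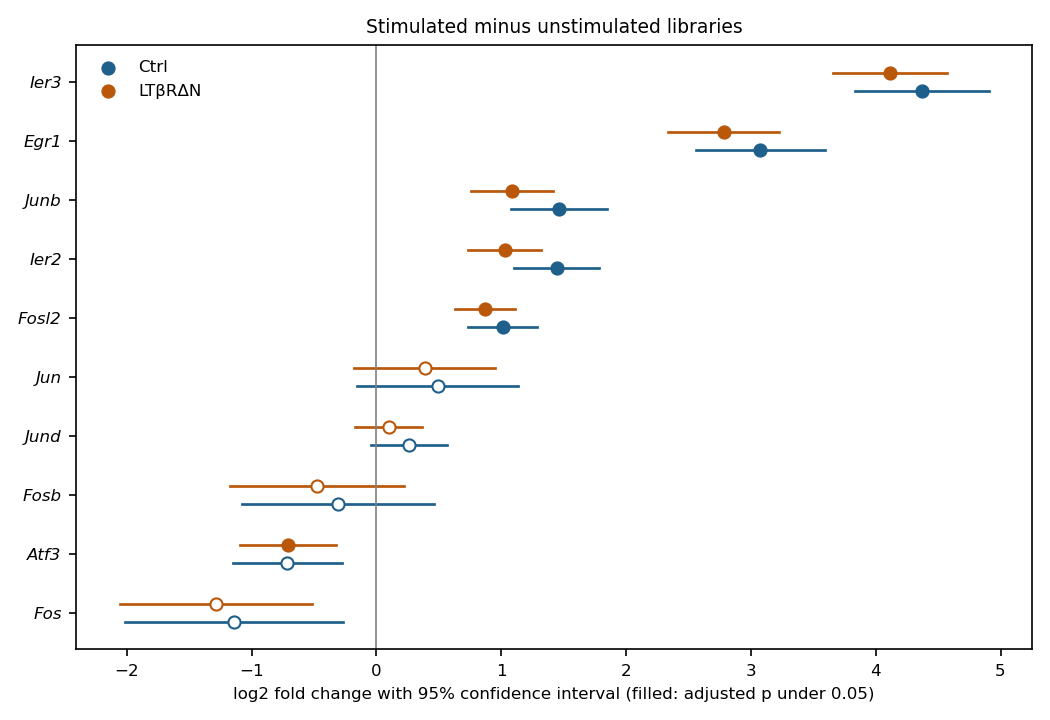
Log2 fold change of stimulated against unstimulated libraries (x axis) for each of the 10 genes in control and LTβRΔN neutrophils; lines are 95% confidence intervals, and filled points passed the adjusted test. Ier3 (4.37 and 4.12) and Egr1 (3.08 and 2.78) lie farthest right, and Fos and Atf3 lie left of 0.

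Ier3 encodes a short-lived protein induced by NF-kB that acts on survival of cells and on ERK signalling. In unstimulated control libraries it was at 148, 155 and 251 CPM, and in stimulated ones at 3520.2, 3445, 3841 and 4451 CPM. In LTβRΔN libraries it was at 322, 149.7, 205 and 294 CPM without and at 4370.0, 3009.8, 4013, 4892 and 4963 CPM with stimulation. The lowest stimulated library was thus far above the highest unstimulated one in both genotypes. Its mean was 185 ± 57.6 (SD, n = 3) CPM and 3814 ± 458 (SD, n = 4) CPM in controls, a rise of 20.7-fold (log2 fold change 4.37, SE 0.258, edgeR adjusted p = 2.68e-11). In LTβRΔN neutrophils the means were 243 ± 79.4 (SD, n = 4) and 4250 ± 795 (SD, n = 5) CPM, a rise of 17.3-fold (log2 fold change 4.12, SE 0.222, edgeR adjusted p = 4.95e-12). Ordered by p among all tested genes, Ier3 stood at place 11 in controls and 9 in LTβRΔN neutrophils.

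Egr1 encodes a zinc finger factor that is transcribed soon after ERK signalling and binds EGR sites. Unstimulated control libraries had 516, 350.1 and 431 CPM and stimulated ones 3680, 3951, 3727 and 3240.2 CPM. Unstimulated LTβRΔN libraries had 471, 372, 366 and 444 CPM and stimulated ones 1704, 4377, 3613, 2484 and 2057 CPM. All 7 unstimulated libraries lay close together, whereas stimulated LTβRΔN libraries spread on both sides of the stimulated controls. Egr1 rose by 3.08 on the log2 scale in controls (SE 0.249, edgeR adjusted p = 5.9e-09) and by 2.78 in LTβRΔN neutrophils (SE 0.214, edgeR adjusted p = 2.29e-09).

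Ier2, an early response gene whose product is nuclear, had 1319, 1482 and 1495 CPM in unstimulated and 3357, 4503, 4026 and 3710.4 CPM in stimulated control libraries. LTβRΔN libraries had 1822, 1198, 1727 and 2178 CPM without and 2915, 4141, 4006, 3327 and 3265 CPM with stimulation. Groups by label did not overlap in either genotype. The rise was 1.44 on the log2 scale in controls (SE 0.165, edgeR adjusted p = 1.37e-06) and 1.03 in LTβRΔN neutrophils (SE 0.142, edgeR adjusted p = 2.61e-05).

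Of the 3 Jun genes, Junb rose with the stimulated label in both genotypes, and Jun and Jund did not pass the test in either. Junb, which in many settings opposes the growth-promoting activity of Jun, had the highest level per exon length of all members. It had 3898, 4841 and 6422 CPM in unstimulated and 12436, 14469, 13914 and 15002 CPM in stimulated control libraries. LTβRΔN libraries had 7650.1, 3860.2, 5965 and 7763 CPM without and 12062, 13527, 14321, 13906 and 13232 CPM with stimulation. No stimulated library was below 12062 CPM and no unstimulated one above 7763 CPM. Junb rose by 1.47 on the log2 scale in controls (SE 0.185, edgeR adjusted p = 6.57e-06) and by 1.09 in LTβRΔN neutrophils (SE 0.160, edgeR adjusted p = 5.6e-05).

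Jun, the founding Jun protein and a target of JNK, had 618, 601 and 1271 CPM in unstimulated and 834, 1137, 1003 and 1687 CPM in stimulated control libraries. In LTβRΔN libraries it had 1476, 441, 721.3 and 1291 CPM without and 1429.7, 1055, 1168, 1375 and 1421 CPM with stimulation. Ranges by label overlapped in both genotypes, and the unstimulated libraries were the more spread in LTβRΔN neutrophils. Its log2 fold change was 0.49 in controls (95% confidence interval -0.15 to 1.13, edgeR adjusted p = 0.65) and 0.39 in LTβRΔN neutrophils (-0.18 to 0.95, edgeR adjusted p = 0.648).

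Jund, a Jun gene that is transcribed steadily in most cells, had 930.3, 984 and 1111 CPM in unstimulated and 1313, 1229.9, 1021 and 1266 CPM in stimulated control libraries. The LTβRΔN levels were 1589, 929, 1207 and 1492 CPM without and 1569, 1411, 1410.4, 1302 and 1301 CPM with stimulation. Its log2 fold changes were the smallest of the 3 Jun genes, at 0.26 in controls (-0.05 to 0.57, edgeR adjusted p = 0.577) and 0.10 in LTβRΔN neutrophils (-0.17 to 0.37, edgeR adjusted p = 0.869).

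Among the 3 Fos genes, Fosl2 rose in both genotypes, while Fos had lower means in stimulated libraries without passing the main test, and Fosb stayed low throughout. Fosl2, also known as Fra-2, lacks the strong activation domain of Fos. It had 256, 284 and 249.2 CPM in unstimulated and 572, 557.8, 515 and 478 CPM in stimulated control libraries. LTβRΔN libraries had 329.7, 243, 288 and 333 CPM without and 537, 611, 479.8, 541 and 569.9 CPM with stimulation. Its libraries spread little within a group, and the groups by label did not overlap. Fosl2 rose by 1.01 on the log2 scale in controls (SE 0.133, edgeR adjusted p = 1.14e-05) and by 0.87 in LTβRΔN neutrophils (SE 0.117, edgeR adjusted p = 1.52e-05).

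Fos, the founding member, whose transcript is among the shortest-lived, had 1997, 2261 and 6735 CPM in unstimulated and 1221, 1134, 1252 and 3044 CPM in stimulated control libraries. In LTβRΔN libraries it had 8360.4, 2034, 5054 and 5991 CPM without and 3290.4, 1218, 1859, 2356 and 2294 CPM with stimulation. A single library of each control group stood well above the rest, and ranges by label overlapped in both genotypes. The means were 3664 ± 2663 (SD, n = 3) and 1663 ± 922 (SD, n = 4) CPM in controls, with a log2 fold change of -1.14 (SE 0.421, edgeR adjusted p = 0.212). In LTβRΔN neutrophils they were 5360 ± 2618 (SD, n = 4) and 2203 ± 759 (SD, n = 5) CPM, with a log2 fold change of -1.28 (SE 0.372, edgeR adjusted p = 0.0577). In the unpaired test these values turned on single libraries. In controls Fos was at -0.36 without library 73 (edgeR adjusted p = 0.916) and at -1.61 without library 83 (edgeR adjusted p = 0.0295). In LTβRΔN neutrophils it was at -0.99 without library 67 (edgeR adjusted p = 0.235), and it passed without library 68 (-1.56, edgeR adjusted p = 0.013) or 75 (-1.47, edgeR adjusted p = 0.04). The main test treated libraries as unpaired. Most column names carry a number that occurs under both labels, and its meaning is not given. With a term for this number, added after seeing the data, Fos was at -0.95 in controls (edgeR adjusted p = 9.32e-05). In LTβRΔN neutrophils Fos was then at -1.22 (edgeR adjusted p = 1.08e-06). In every pair of libraries with the same number, Fos was lower in the stimulated library, with log2 ratios from -1.44 to -0.709. Pairing was not settled.

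Fosb, which is induced with Fos in many cells, had 51.6, 41.2 and 33.0 CPM in unstimulated and 60.1, 34.4, 14.7 and 26.8 CPM in stimulated control libraries. The LTβRΔN levels were 46.6, 31.2, 44.8 and 52.7 CPM without and 26.8, 45.8, 29.6, 40.0 and 15.9 CPM with stimulation. The groups overlapped, and the log2 fold changes of -0.31 in controls (-1.08 to 0.46, edgeR adjusted p = 0.908) and -0.47 in LTβRΔN neutrophils (-1.17 to 0.22, edgeR adjusted p = 0.654) did not pass the test.

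Atf3, a stress-inducible factor that limits cytokine transcription in myeloid cells, had 1518, 1357 and 2235 CPM in unstimulated and 957, 901, 893 and 1406 CPM in stimulated control libraries. LTβRΔN libraries had 2512, 1163, 1984 and 2216 CPM without and 1434, 984, 1203, 1215 and 1207 CPM with stimulation. One library made the ranges overlap in each genotype, library 83 in stimulated controls and library 68 in unstimulated LTβRΔN neutrophils. Atf3 fell by 0.71 on the log2 scale in LTβRΔN neutrophils (SE 0.186, edgeR adjusted p = 0.0295). In controls its log2 fold change was also -0.71 but did not pass the test (SE 0.210, edgeR adjusted p = 0.0694). These calls turned with single libraries: without library 83 Atf3 passed in controls (-0.89, edgeR adjusted p = 0.0145), without library 73 it was at -0.47 there (edgeR adjusted p = 0.465), and without any one of 7 of the 9 LTβRΔN libraries (67, 69, 70, 76, 77, 78 and 79) its edgeR adjusted p there lay between 0.0611 and 0.144. With the term for the number in the column names, Atf3 was at -0.64 in controls (edgeR adjusted p = 0.00228). In LTβRΔN neutrophils Atf3 was then at -0.66 (edgeR adjusted p = 0.000415). Atf3 was lower in the stimulated library of every pair with the same number, with log2 ratios from -0.866 to -0.24.

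The sequencing index moved with the label. All 4 unstimulated LTβRΔN libraries and control libraries 71 and 72 carried index S520, and control library 73 and every stimulated library carried S521. Within S521, where library 73 was the lone unstimulated control and is assumed to vary like the other groups, the 5 rises in controls all passed, with log2 fold changes of 1.09 for Fosl2, 1.11 for Junb, 1.38 for Ier2, 3.08 for Egr1 and 3.92 for Ier3 (edgeR adjusted p of 0.00402 or less). Fos was then at -2.03 (edgeR adjusted p = 0.00666) and Atf3 at -1.11 (edgeR adjusted p = 0.00484), but library 73 was the highest control library for both, so that these values rest on it alone. In LTβRΔN neutrophils the label and the index cannot be told apart from their own libraries. With the index as a covariate, whose effect there rests on library 73 against libraries 71 and 72, Egr1 (2.79, edgeR adjusted p = 0.00142) and Ier3 (3.39, edgeR adjusted p = 2.8e-05) passed. The calls ended for Fosl2 (0.99, edgeR adjusted p = 0.0667), Junb (0.53, edgeR adjusted p = 1), Ier2 (0.93, edgeR adjusted p = 0.304) and Atf3 (-1.34, edgeR adjusted p = 0.0912), and Fos was at -2.95 (edgeR adjusted p = 0.0235).

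Libraries that were high for one gene were often high for others. Libraries 67, 70 and 73 were the 3 highest of 7 unstimulated libraries for Fos, Jun, Junb, Atf3 and Ier3. Library 68, which also had the fewest counts (1094335), was the lowest unstimulated library for Fosb, Fosl2, Jun, Junb, Jund, Atf3 and Ier2. Among stimulated libraries, 75 and 83 were the pair with the highest Fos, Jun and Atf3, and 75 was the lowest for Egr1, Ier2 and Junb.

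Across genes, levels were compared as CPM per kb of exon. Junb ranked highest in all 4 groups, with medians of 2676 and 7845 CPM per kb in unstimulated and stimulated control neutrophils, and 3763 and 7478 in LTβRΔN neutrophils. Fosb ranked lowest, with medians of 10.9, 8.10, 12.1 and 7.82 CPM per kb. Ier3 was seventh among the 10 in unstimulated groups (137 and 221 CPM per kb) and second in stimulated ones (3254 and 3864 CPM per kb). Fos was second in both unstimulated groups (1073 and 2620 CPM per kb), where its range overlapped that of Junb above it and of Ier2 below it. Neighbours in the order whose ranges overlapped in both unstimulated groups ran from Junb down through Fos, Ier2 and Atf3 to Jund, and from Jun to Ier3. In stimulated controls Junb, Ier3 and Ier2 were each apart from the next gene, and Egr1, Jund, Fos, Atf3 and Jun each overlapped their neighbour. In stimulated LTβRΔN libraries Junb was apart from the rest, Ier3 overlapped Ier2, Fos overlapped Jund, and Atf3, Egr1 and Jun overlapped in turn.

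The makeup of both families is given by shares, as a description. Of the summed level of the 3 Fos genes per kb, Fos itself made up 94.7% to 98.6% in unstimulated and 84.9% to 94.7% in stimulated control libraries, and 95.5% to 98.4% and 84.6% to 94.6% in LTβRΔN libraries. The share of Junb in the summed level of the 3 Jun genes was 74.1% to 77.5% in unstimulated and 86.6% to 89.3% in stimulated controls, and 74.9% to 77.6% and 82.8% to 86.7% in LTβRΔN libraries. Summed levels of the Jun genes were 2906 to 4615 CPM per kb in unstimulated and 7923 to 9581 CPM per kb in stimulated controls. Those of the Fos genes were 1000 to 3242 CPM per kb and 632 to 1524 CPM per kb. Control ranges by label were apart for the Jun family and overlapped for the Fos family. The plot of levels per exon length shows these orders.

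**Figure D3:**
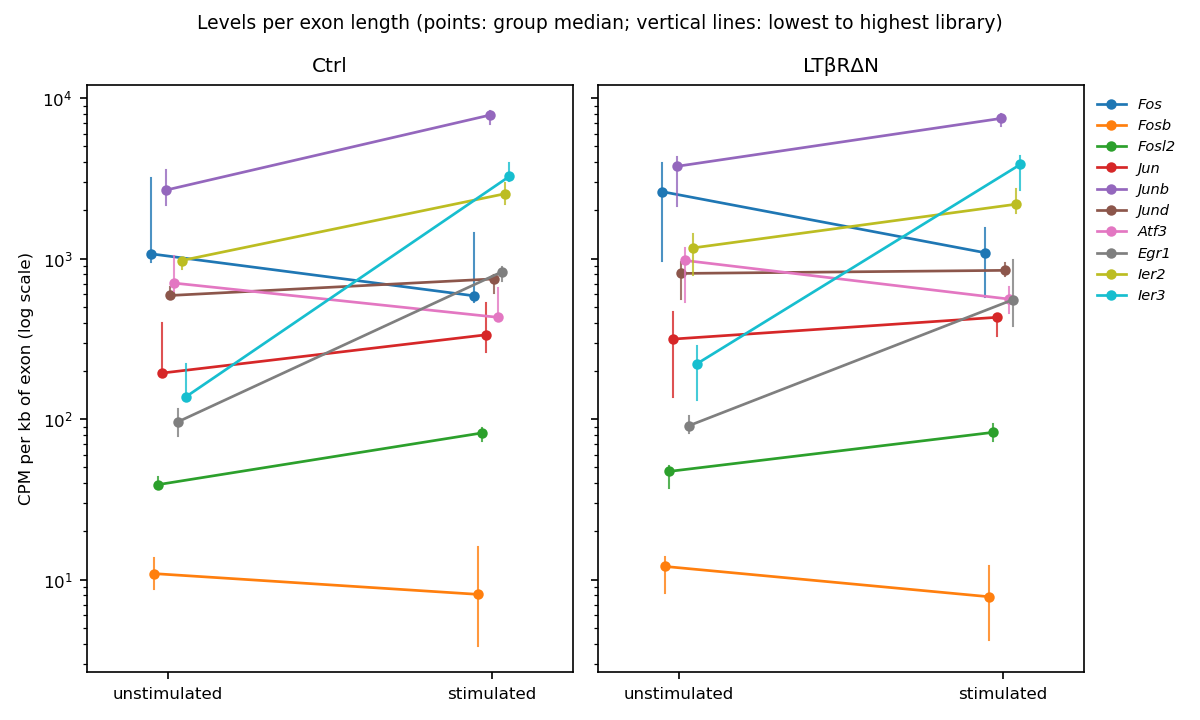
Level of each of the 10 genes in CPM per kb of exon (log axis) in unstimulated and stimulated libraries of control (left) and LTβRΔN (right) neutrophils; points are group medians and vertical lines run from the lowest to the highest library. Junb is highest and Fosb lowest in each group, and the lines of Ier3 and Egr1 cross those of other genes upward.

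The next question was whether these genes differed between genotypes. No member passed the test in unstimulated libraries, where 0.0217% of all genes did in edgeR (2 genes, which were Ltbr and, named here after its values were seen, Ap1s1). At an unadjusted p under 0.05 there were 1 member and 258 of 9213 genes, and DESeq2 called 0 members and 4 genes. Of the 10 log2 fold changes of LTβRΔN against control, 9 were above 0, with a median of 0.26 (-0.01 over all genes). Jund had the smallest p, at 1304 ± 298 (SD, n = 4) CPM in LTβRΔN and 1008 ± 93.1 (SD, n = 3) CPM in control neutrophils (log2 fold change 0.37, 95% confidence interval 0.07 to 0.68, edgeR unadjusted p = 0.0196, adjusted p = 1). Ier3 differed by 0.41 (-0.04 to 0.86), Junb by 0.32 (-0.05 to 0.69) and Fos by 0.55 (-0.34 to 1.44) in log2 terms, with intervals that include 0. Within index S520 (4 LTβRΔN against 2 control libraries), 0 members were called, with log2 fold changes of 0.45 for Jund, 0.69 for Ier3 and 1.33 for Fos (edgeR adjusted p = 0.795). Leaving out single libraries moved Fos between 0.25 (without library 71) and 1.33 (without library 73).

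In stimulated libraries, which all carried index S521, 0 members passed the test, against 0.0217% of all genes (the same 2 genes in edgeR), and 0 members had an unadjusted p under 0.05 or were called by DESeq2, against 591 of 9213 genes and 14 genes. The largest difference relative to its error was that of Egr1, at 2847 ± 1117 (SD, n = 5) CPM in LTβRΔN and 3649 ± 297 (SD, n = 4) CPM in control neutrophils (log2 fold change -0.36, 95% confidence interval -0.76 to 0.04, edgeR adjusted p = 0.817). For Fosl2 the interval was the narrowest, from -0.19 to 0.28 around 0.05, and for Junb it ran from -0.38 to 0.26 around -0.06. For Fos it was wide, from -0.37 to 1.18 around 0.41. The members' median was 0.10 (-0.01 over all genes), with 6 of 10 above 0. Both genotype contrasts are drawn in the plot of genotype differences.

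**Figure D4:**
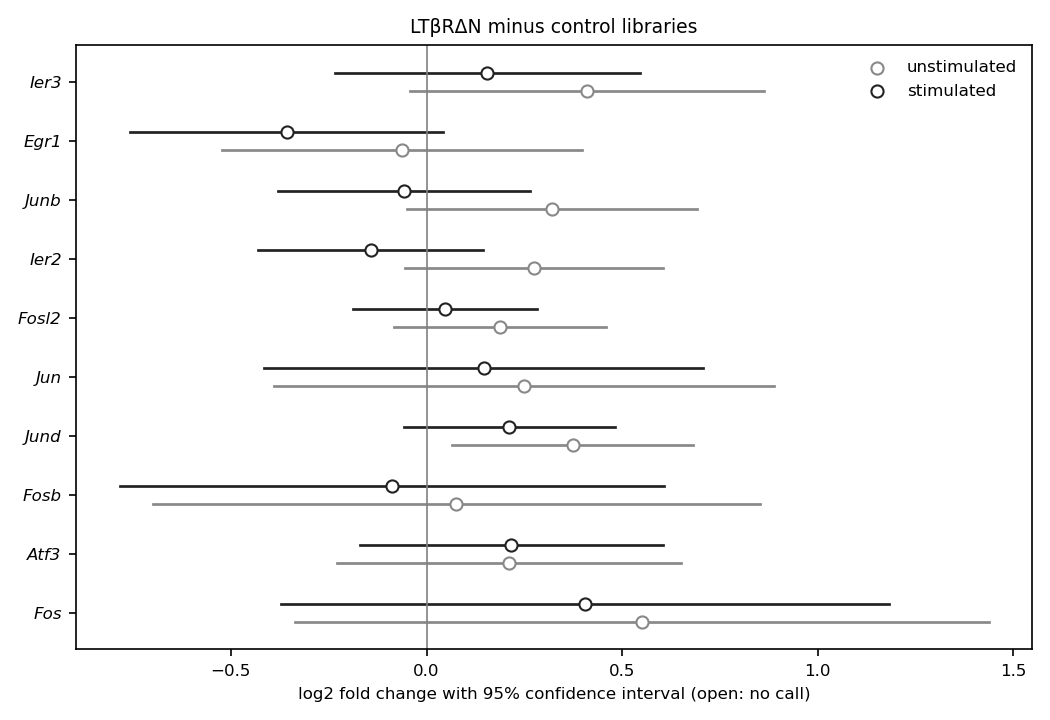
Log2 fold change of LTβRΔN against control libraries (x axis) for each of the 10 genes, in unstimulated and in stimulated libraries; lines are 95% confidence intervals and open points did not pass the adjusted test. All points are open, and the interval of unstimulated Jund (0.07 to 0.68) alone lies wholly on one side of 0.

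Whether the response to the label differed with genotype was tested by an interaction term, and 0 members and 0% of all 9213 genes passed in edgeR. At an unadjusted p under 0.05 there were 0 members and 342 genes, and DESeq2 called 0 of either. Of the 10 interaction terms, 9 were below 0, with a median of -0.16 (-0.01 over all genes). The lowest were those of Ier2 (-0.42, 95% confidence interval -0.86 to 0.02, edgeR unadjusted p = 0.0599) and Junb (-0.38, -0.87 to 0.11). For Ier3 the interval ran from -0.85 to 0.34 and for Egr1 from -0.91 to 0.32. The signs of the 10 terms are not independent, as members often moved together across libraries. The same unstimulated libraries also enter the unstimulated genotype contrast, where 9 were above 0.

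Genes of related roles were described as lists. Of all tested genes, 2.82% were higher and 0.662% lower in controls, and 2.98% and 0.749% in LTβRΔN neutrophils. Calls in LTβRΔN neutrophils went from 344 to 79 genes with the index as a covariate. Of 24 tested genes among 29 other early response genes, 13 rose in controls and 14 in LTβRΔN neutrophils, with 0 lower, and the list medians were 1.5 and 1.38 on the log2 scale. The 13 were Egr2, Ier5, Btg2, Zfp36, Dusp2, Csrnp1, Ppp1r15a, Gadd45b, Tnfaip3, Nfkbia, Nfkbiz, Trib1 and Ptgs2, and Klf6 joined them in LTβRΔN neutrophils. Tnfaip3 and Nfkbia, which restrain NF-kB, rose by 5.98 and 5.0 in controls and by 5.35 and 4.85 in LTβRΔN neutrophils. Dusp2, a phosphatase of MAP kinases, averaged 91.5 ± 13.4 CPM (SD, n = 3) in unstimulated controls against 1018 ± 139 CPM (SD, n = 4) in stimulated ones, a rise of 3.48 on the log2 scale (edgeR adjusted p = 5.25e-11), and rose by 2.70 in LTβRΔN neutrophils (edgeR adjusted p = 1.91e-10). Gadd45b rose by 3.54 and 3.42, Nfkbiz by 2.38 and 2.24, and Csrnp1 by 1.87 and 1.65, in the same order of genotypes. Egr4, Ier5l, Myc, Cyr61 and Arc had too few counts to test, with at most 17 in a library.

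Among 13 tested of 14 other AP-1 and bZIP partners, Maff rose and Ddit3 fell in both genotypes, and the other 11 did not pass. Maff, a small Maf protein without an activation domain, averaged 8.21 ± 2.40 CPM (SD, n = 3) in unstimulated and 104 ± 21.1 CPM (SD, n = 4) in stimulated controls, a rise (3.68 on the log2 scale, edgeR adjusted p = 1.06e-08), and rose by 3.36 in LTβRΔN neutrophils (edgeR adjusted p = 6.68e-09). Ddit3, a C/EBP relative of the unfolded protein response, fell by 0.91 in controls (edgeR adjusted p = 0.00628) and by 1.04 in LTβRΔN neutrophils (edgeR adjusted p = 0.000401). The list medians were -0.07 and -0.21.

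Of 21 tested of 22 MAP kinases and upstream factors, 2 rose in each genotype and 0 fell. Map3k8, the kinase Tpl2 upstream of ERK, rose by 2.40 in controls (edgeR adjusted p = 1.78e-06) and by 1.82 in LTβRΔN neutrophils (edgeR adjusted p = 1.23e-05). Mapkapk2, a kinase below p38 that stabilizes short-lived cytokine transcripts, rose by 1.88 (edgeR adjusted p = 9.82e-07) and 1.19 (edgeR adjusted p = 8.99e-05). Of 10 tested of 12 heat shock genes, Hspa5, a chaperone of the endoplasmic reticulum, rose by 0.80 (edgeR adjusted p = 0.000957) and 0.95 (edgeR adjusted p = 2.04e-05), and the other 9 did not pass in either genotype, with list medians of 0.24 and 0.21. No gene of these lists passed in a genotype contrast or in the interaction.

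For each member, the genes with the most similar pattern were those with the smallest root mean square difference of centred log2 CPM over the 16 libraries, as a description. Nearest to Fos were Rhob (0.283), Gadd45g (0.433) and D4Wsu53e (0.485), and the nearest member was Atf3 (0.455). Nearest to Egr1 were Marcksl1 (0.25), Egr2 (0.278) and Dusp2 (0.328), and nearest to Ier3 were Socs3 (0.263), Cxcl2 (0.371) and Id1 (0.397). Junb and Ier2 had each other as nearest member (0.165) and Asprv1 as nearest other gene (0.145 and 0.135). Jun was nearest to Gadd45a (0.219), Jund to Nr4a1 (0.161), Atf3 to Hist1h1c (0.21), Fosl2 to Ppp1r3d (0.159) and Fosb to Zfp706 (0.35).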

How the data were processed

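RNA of 16 neutrophil libraries was amplified as cDNA and sequenced single-end on an Illumina HiSeq instrument. The authors deposited 1 table of reads counted on each gene symbol (raw counts, not normalized). The submitters' processing notes name TopHat 1.4.1, Bowtie 1.0.0, HTSeq 0.7.1 and build mm10 (GRCm38). Counts carry no molecular identifiers by which amplified copies could be removed, and the tools named do not tell whether such copies were removed otherwise.

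Genes were kept by filterByExpr (minimum count 10, minimum total 15). The model was edgeR's (version 4.0.16, R 4.3.3), with TMM factors, 1 coefficient per group over all 16 libraries and the quasi-likelihood test, for 5 comparisons. Benjamini-Hochberg adjusted p under 0.05, over the 9213 genes, counted as a call. The SE is the log2 fold change over the root of F. The test was checked on simulated counts. Library pairs within groups differed by more than sampling noise (chi-square per degree of freedom 7.12 to 50.4 over 25 pairs). Replicates were numbered in accession order, and libraries are named by their number in the table.

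The members, the lists and the choice of further genes (up to 6 per list by smallest p in controls, and the 3 most similar to each member) were set with earlier results of these data known. The alternatives were DESeq2 1.42.0 and its size factors, upper-quartile scaling, library totals, other filters and thresholds, the index, only the groups compared, and each library left out.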

Additional observations from a re-analysis of the deposited data

Results flagged for a closer look

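In stimulated control neutrophils, library 83 stood apart from the other 3 for Fos, at 3044 CPM, where its gap to the next library was 0.938 of the group's range. The same library stood apart for Atf3, at 1406 CPM, with a gap of 0.877 of the range. Both gaps are above the 95% critical value of Dixon's test for 4 libraries. Of 30 combinations of gene and group examined, these 2 were picked out, and chance gives 1 in 20, or 1.5 here. The 2 are not independent, as both come from library 83 and Fos and Atf3 had each other as nearest member (0.455). Unstimulated controls, with 3 libraries, were not examined. Library 83 carries the same number in the column names (550) as unstimulated control library 73. Library 73 had the highest Fos (6735 CPM) and Atf3 (2235 CPM) of its group.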

How the results depend on the processing

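Under the alternatives run, every one of Fosl2, Junb, Egr1, Ier2 and Ier3 kept its direction and its call in controls, and Egr1 and Ier3 did so in LTβRΔN neutrophils. In the latter, 3 members were called with the index covariate (6 before): Egr1, Ier3 and Fos, of which Fos had no call before. Genes called between labels in controls were 157 with the index as a covariate, 153 within index S521 and 512 at an unadjusted p under 0.01 (321 before). In LTβRΔN neutrophils they were 79 with the index and 577 at p under 0.01 (344 before). The unstimulated genotype contrast gave 4 genes with every gene of at least 1 count, 1 with at least 10 counts in every library, 4 by DESeq2, 56 at p under 0.01 and 2 to 6 without single libraries. The stimulated one gave 1 with at least 10 counts in every library, 14 by DESeq2 and 136 at p under 0.01. The interaction gave 1 with the index, 60 at p under 0.01 and 0 to 2 without single libraries. Scaling by library totals moved the median of all genes to -0.27 in controls and -0.21 in LTβRΔN neutrophils.

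Changes of sign occurred where no call was made. In controls, Fosb became 0.041 and Jun -0.13 with the index as a covariate, and 0.037 and -0.13 within S521. In LTβRΔN neutrophils, Jund became -0.075 with library totals, and Fosb 0.022, Jun -0.67 and Jund -0.12 with the index. In the unstimulated genotype contrast Fosb became -0.069 with the index and -0.063 within S520. The interaction of Atf3 became -0.24 with the index. Leaving out single libraries gave ranges that crossed 0: Jund in LTβRΔN neutrophils, -0.035 to 0.20; in the unstimulated genotype contrast, Fosb -0.072 to 0.25, Jun -0.0099 to 0.69 and Egr1 -0.19 to 0.082; in the stimulated one, Fosb -0.34 to 0.35 and Fosl2 -0.00016 to 0.090; in the interaction, Fos -0.93 to 0.32, Fosb -0.42 to 0.27, Jun -0.55 to 0.16 and Atf3 -0.24 to 0.19. The cause was not tested.

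Atf3 in controls passed with upper-quartile scaling (adjusted p = 0.0488), library totals (0.00347), either other filter (0.0232 and 0.0302) and DESeq2 (0.0221). Fos in LTβRΔN neutrophils passed with library totals (0.0174), either other filter (0.00797 and 0.0207) and a fit of the compared groups only (0.00886).

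Most column names carry a number that occurs under both labels. What it stands for is not given. Deviations of same-numbered libraries correlated with r of 0.0214 to 0.0694 over all tested genes, under the minimum of 0.1 set for pairing, and with r of 0.146 to 0.48 in all 7 pairs over the 1000 genes with the highest mean, a choice made after seeing the data. The check over all genes was kept, so the numbers were not taken to pair libraries, but pairing was not settled. A replicate block by this number, added after seeing the data, called 324 genes in controls and 343 in LTβRΔN neutrophils and 0 in the interaction, gave Fos -0.95 (adjusted p = 9.32e-05) and -1.22 (adjusted p = 1.08e-06) and Atf3 -0.64 (adjusted p = 0.00228) and -0.66 (adjusted p = 0.000415), in edgeR, so that Fos in both genotypes and Atf3 in controls gained calls, and turned the interaction of Atf3 to -0.019. Over those 1000 genes, 13 of 14 libraries correlated best with their own number, as a hint from the data. The smallest library held 1094335 counts, which limits the precision of low genes such as Fosb most.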
